A study of Mus musculus with 22 samples.

Results

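Itaconate, arginine and tryptophan metabolism was followed through 7 genes in dendritic cells (DCs) of the mouse pancreas: Acod1, Nos2, Slc7a2, Ass1, Arg1, Arg2 and Ido1. All probe sets that the array annotation assigns to one of these genes alone were taken, which gave 11 of the 45037 probe sets tested and 7 of the 18193 genes with a probe set of their own. The genes were chosen by their function together with their log2 levels over the 6 groups of these same arrays, which were already known, so their values and differences are given as a description. A call means an adjusted p under 0.1 in a fit of all 45037 probe sets and is no independent support for the choice.

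The cells were CD11c+CD8α- DCs sorted by flow cytometry from CD45-enriched pancreas cells of female mice aged 5 weeks, with 10 pancreases pooled for each sample. The diabetes-prone NOD strain, here before diabetes, was compared with the non-diabetic C57BL/6 strain. Cells lysed straight after sorting, called steady state, came from 4 C57BL/6 and 3 NOD samples. Cells kept for 18 h in culture with PBS gave 4 C57BL/6 and 4 NOD samples, and cells kept for 18 h with LPS, a bacterial cell wall component that activates TLR4, gave 3 C57BL/6 and 4 NOD samples. The medium held serum and beta-mercaptoethanol. The submitters describe the culture as another experiment, whereas the methods state that some of the sorted cells were lysed directly and the rest were cultured. The labels do not say whether steady state and cultured samples come from the same sorts. Culture, time out of the tissue and any difference of experiment cannot be told apart. LPS and culture comparisons of a strain share its PBS arrays. The samples were not single cells, so fewer cells of a type and less RNA per cell cannot be told apart either. Each value is a log2 RMA expression value, whose median over the probe sets of an array lay between 7.63 and 7.68, with a highest value of at least 14.8 on each of the 22 arrays. No detection calls were used, so a value near or under the lower quartile of its array, which was between 6.03 and 6.36, is not shown to be above background. Differences from such a group are differences of RMA values and are given without a fold.

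As background, Acod1 (also called Irg1) makes itaconate from the tricarboxylic acid (TCA) cycle intermediate cis-aconitate in activated myeloid cells, and itaconate inhibits succinate dehydrogenase and can activate the factor NRF2. Arginine enters the cell through the transporter Slc7a2. The inducible nitric oxide synthase Nos2 turns it into nitric oxide and citrulline, and Ass1 with Asl can remake arginine from citrulline. The arginases, cytosolic Arg1 and mitochondrial Arg2, turn it into ornithine and urea instead. Ido1 opens the kynurenine pathway of tryptophan breakdown. DCs and macrophages use these enzymes to kill microbes and to restrain T cells.

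The start regions of Acod1 and Ass1 are shown because these were the 2 of 7 members in the RefSeq promoter table used, and because the members moved together in culture. Each line gives the 250 bases before the RefSeq start on the plus strand of build GRCm38.p6, at chr14:103046762-103047011 for Acod1 and chr2:31470020-31470269 for Ass1. Capitals mark matches to GGAANTTCC, a 9-letter form of the NF-κB recognition sequence, and to the TATA box TATAAA.
Acod1: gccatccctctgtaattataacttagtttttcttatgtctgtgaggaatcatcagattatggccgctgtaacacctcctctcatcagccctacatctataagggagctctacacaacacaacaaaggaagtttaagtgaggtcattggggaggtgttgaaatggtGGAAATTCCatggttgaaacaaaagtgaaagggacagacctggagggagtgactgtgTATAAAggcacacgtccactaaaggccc
Ass1: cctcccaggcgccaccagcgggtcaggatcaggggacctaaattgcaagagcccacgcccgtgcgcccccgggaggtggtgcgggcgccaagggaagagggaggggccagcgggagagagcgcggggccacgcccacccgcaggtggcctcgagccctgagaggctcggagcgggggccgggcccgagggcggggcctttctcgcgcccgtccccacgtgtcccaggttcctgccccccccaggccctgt
In Acod1 the GGAAATTCC match spans the bases 85 to 77 before the start, and the TATAAA match spans the bases 28 to 23 before it. The Ass1 window held neither. Among 32851 promoter windows of the same length, 0.813% held GGAANTTCC and 12.4% held TATAAA on either strand. Both motifs were searched after the sequences had been read. Neither window held the NF-κB core GGGANTTTC (0.941% of windows), GAAANNGAA of interferon response elements (7.13%), TTCNNNGAA of gamma-activated sites (7.02%), the C/EBP site TTGCNNAA (9.56%) or the AP-1 site TGANTCA (6.75%). A match is a run of letters and not a shown site of binding.

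The DC label was checked against marker genes. The class II genes H2-Ab1 and Cd74 lay at percentile 97.8 of all probe sets or higher in every array, and Sirpa, a marker of the CD8α- subset, at 97.9 or higher. Itgax, which encodes CD11c, lay between 10.8 and 11.4 at steady state and between 8.11 and 9.23 in culture, so the sort marker was lower in cultured cells. Of the 12 measured CD8α- DC markers 7 fell in PBS culture in each strain, with 4 higher in C57BL/6 and 0 in NOD, and among them Clec10a changed by −4.60 in NOD and −4.98 in C57BL/6 and Cd209a (DC-SIGN) by −4.48 and −4.88. Between the strains 3 were lower in NOD at steady state, 4 with PBS and 5 with LPS, and 2 were higher with PBS. Their summed level was 87951 to 95912 in C57BL/6 and 86595 to 95601 in NOD at steady state, 63738 to 71212 and 44720 to 53711 with PBS, and 59934 to 67140 and 45760 to 50634 with LPS. Cd8a, the marker sorted against, lay between 7.22 and 7.86 at steady state, between 8.79 and 10.34 with PBS in C57BL/6, where it rose by 1.68, and between 8.25 and 8.66 with PBS in NOD. The 10.34 was C57BL/6 replicate 3, which lay 1.46 above the mean of the other C57BL/6 PBS arrays and adds to that rise. The 6 measured markers of CD8α+ or CD103+ DCs summed to 10105 to 12330 with PBS in C57BL/6 and 14440 to 15495 in NOD, from 6348 to 6950 and 6150 to 7165 at steady state, and to 8955 to 9197 and 11206 to 12614 with LPS. Of 5 plasmacytoid DC markers 2 were higher in NOD at steady state (Siglech 1.67, Ccr9 0.97) and 1 lower. Their sum was 10979 to 12344 in C57BL/6 and 13876 to 14722 in NOD at steady state, and 24198 to 27158 and 25834 to 27738 with PBS. Macrophage genes were also high at steady state, with Adgre1 (F4/80) between 12.6 and 13.2 and C1qa between 12.2 and 13.9. Of 13 measured macrophage markers, 9 fell in PBS culture in NOD and 10 in C57BL/6, and 2 rose in each. With LPS against PBS 7 fell and 1 rose in NOD, and 3 fell and 0 rose in C57BL/6. On the linear scale their summed level was 146188 to 160191 at steady state in C57BL/6 and 152853 to 156891 in NOD, then 93138 to 102731 and 89691 to 100998 with PBS, and 76060 to 81114 and 72601 to 75391 with LPS. All 7 measured markers of the exocrine acinar cells of the pancreas fell in culture in both strains. Their summed level went from 70007 to 94236 in C57BL/6 and 49684 to 97827 in NOD at steady state to 2820 to 32861 and 3279 to 43633 with PBS, and it was 3243 to 18618 and 5189 to 22334 with LPS. NOD had lower levels of 8 of 9 measured NK and innate lymphoid markers at steady state, 5 of 9 with PBS and 5 of 9 with LPS. The sum of these was 7528 to 8709 in C57BL/6 and 3622 to 4391 in NOD at steady state, 11047 to 17857 and 6495 to 12761 with PBS, and 10266 to 15895 and 4901 to 10246 with LPS. The 10 measured neutrophil markers summed to 8623 to 10633 and 6034 to 8272 at steady state, 9553 to 19079 and 8219 to 14819 with PBS, and 20634 to 26688 and 21121 to 30563 with LPS. For scale, 30.0% of all 18193 genes fell and 41.6% rose in PBS culture in NOD, and 32.3% and 44.6% in C57BL/6. Between the strains 8.35% were lower and 6.87% higher in NOD at steady state, 5.28% and 5.43% with PBS, and 5.43% and 5.21% with LPS. With LPS against PBS 2.46% fell and 1.93% rose in NOD, and 0.868% and 0.945% in C57BL/6. The part of the marked cell types in the results below was not tested.

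Over the 6 groups the main step was between steady state and culture. In NOD, PBS culture raised all 11 member probe sets and lowered 0, where 37.8% of all probe sets rose and 29.3% fell. In C57BL/6 it raised 10 and lowered 0, against 42.1% and 30.5% of all probe sets, and the probe set not called was that of Arg1. The median log2 difference of the members was 4.72 in NOD and 2.66 in C57BL/6, beside 0.12 and 0.15 over all probe sets. The rise itself differed between the strains for 8 of 11 members, 7 larger and 1 smaller in NOD, where 6.80% of all probe sets passed this interaction test. These shares are printed for scale only, since the same arrays chose the members.

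**Figure D1:**
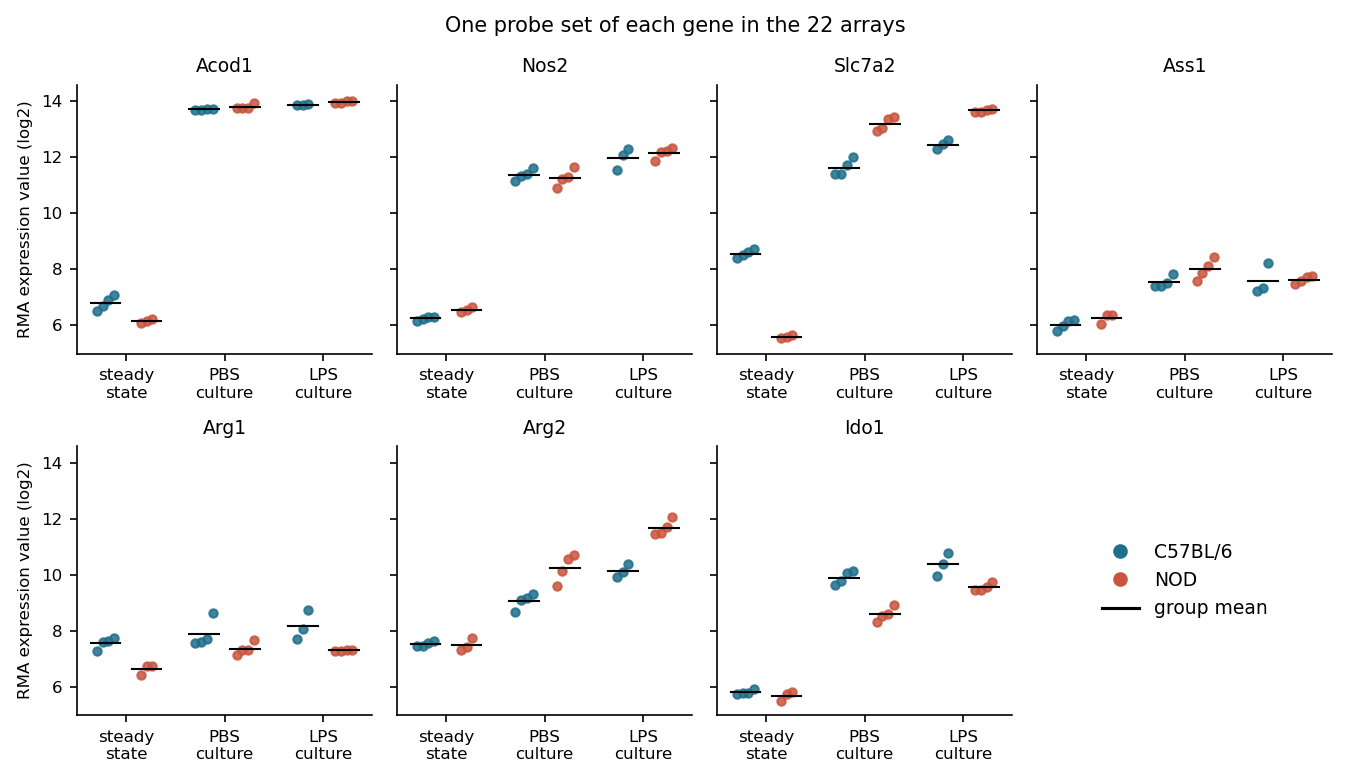
Log2 RMA expression value (y axis) of the brightest member probe set of each gene in the 22 arrays, by condition (x axis) and strain (colour); points are arrays and lines are group means. Acod1, Nos2 and Ido1 sit low in all 7 steady state arrays and high in all 15 cultured arrays, while Slc7a2 changes the order of the strains between steady state and culture.

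Acod1 was low at steady state and near the top of the scale in every culture. Its probe set, 1427381_at, read 6.52, 6.93, 6.68 and 7.08 in C57BL/6 replicates 1, 4, 5 and 6 and 6.21, 6.07 and 6.14 in NOD replicates 1, 4 and 6. The strains did not overlap, and NOD was lower by −0.66 (95% interval −0.95 to −0.36), which was called. The NOD values lay near the lower quartile of their arrays, which was between 6.08 and 6.19, so they are not shown to be above background. After PBS culture the probe set read 13.72, 13.73, 13.71 and 13.70 in C57BL/6 and 13.76, 13.77, 13.94 and 13.75 in NOD. All 8 arrays had it at percentile 99.4 or higher. PBS culture raised Acod1 by 6.91 ± 0.13 (SE) in C57BL/6 and by 7.66 ± 0.11 in NOD, from levels at percentile 23.3 to 41.6 of the arrays. The rise was larger in NOD by 0.75 (0.41 to 1.10), made up of the lower level of NOD at steady state and a strain difference of 0.09 after culture that was not called.

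The PBS arrays already held Acod1 at percentile 99.4 or higher, and whether a further rise could show at that level was not tested. The arrays with LPS read 13.86, 13.90 and 13.87 in C57BL/6 replicates 2, 3 and 4 and 14.01, 14.00, 13.94 and 13.95 in NOD. The difference from PBS was 0.16 (−0.08 to 0.40) in C57BL/6 and 0.17 (−0.04 to 0.38) in NOD, and neither was called although the groups did not overlap in either strain. No cultured array read below 13.70. The order over the 6 groups was NOD steady state, C57BL/6 steady state, C57BL/6 PBS, NOD PBS, C57BL/6 LPS and NOD LPS, with the strains of 1 culture condition and the conditions of 1 strain within 0.17 of each other.

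Nos2, the inducible nitric oxide synthase, also rose in culture without LPS, and unlike Acod1 it was called higher with LPS in NOD. At steady state probe set 1420393_at read 6.30, 6.24, 6.32 and 6.16 in C57BL/6 and 6.56, 6.64 and 6.47 in NOD. These values were between percentiles 27.0 and 32.5 of their arrays. NOD was higher by 0.31 (0.10 to 0.51), called at 0.1 with adjusted p = 0.0671, and the call ended when any one of the 7 arrays was left out, where the difference stayed between 0.26 and 0.35. After PBS culture Nos2 read 11.15, 11.62, 11.32 and 11.40 in C57BL/6 and 10.89, 11.31, 11.67 and 11.22 in NOD. PBS culture raised it by 5.12 ± 0.12 (SE) in C57BL/6 and by 4.72 ± 0.17 in NOD, and the interaction of −0.40 (−0.83 to 0.03) was not called. With LPS it read 12.08, 11.57 and 12.30 in C57BL/6 and 11.86, 12.34, 12.18 and 12.24 in NOD. LPS raised Nos2 by 0.88 (0.52 to 1.24) in NOD, without overlap. In C57BL/6 the difference was 0.61 (0.19 to 1.03), was not called, and the groups overlapped through replicate 3 with LPS at 11.57. In a joint model of all 22 arrays it was called (adjusted p = 0.053). The difference between these responses, 0.27 (−0.29 to 0.82), was not called, so a stronger response of NOD was not shown. The strains overlapped in both culture conditions, with differences of −0.10 (−0.46 to 0.27) and 0.17 (−0.24 to 0.58).

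Slc7a2, the cationic amino acid transporter CAT2 that takes up arginine, changed its strain order between steady state and culture. At steady state its brightest probe set, 1422648_at, read 8.52, 8.39, 8.72 and 8.62 in C57BL/6 and 5.56, 5.66 and 5.58 in NOD. NOD was lower by −2.96 (−3.19 to −2.73). The NOD values lay under the lower quartile of their arrays, which was between 6.08 and 6.19, so this difference is no measure of the fold. After PBS culture it read 11.42, 12.01, 11.72 and 11.39 in C57BL/6 and 13.05, 13.37, 13.46 and 12.93 in NOD, so that NOD was now higher by 1.57 (1.20 to 1.93), 2.96-fold. With LPS it read 12.61, 12.29 and 12.47 in C57BL/6 and 13.62, 13.74, 13.63 and 13.70 in NOD, a difference of 1.22 (0.96 to 1.48). None of the 6 groups overlapped with another, and the order from low to high was NOD steady state, C57BL/6 steady state, C57BL/6 PBS, C57BL/6 LPS, NOD PBS and NOD LPS.

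The other 3 probe sets of Slc7a2 gave the same strain order. Their strain differences at steady state were −1.87, −2.41 and −2.67, after PBS culture 1.01, 1.52 and 1.49, and with LPS 0.56, 1.17 and 1.18, all called. In each of the 3, NOD PBS overlapped C57BL/6 LPS and no other neighbours did. PBS culture raised the brightest probe set by 3.07 ± 0.14 (SE) in C57BL/6, 8.41-fold. In NOD the rise had an interval of 7.28 to 7.92 and started under the lower quartile. The difference between these rises was 4.53 (4.09 to 4.97) for it and 2.88, 3.93 and 4.16 for the others, and it rests on those low NOD values as well as on the strain order after culture. LPS raised the brightest probe set by 0.82 (0.44 to 1.20) in C57BL/6 and 0.47 (0.19 to 0.75) in NOD, called in both. With PBS it already lay at percentiles 98.3 to 99.2 in NOD, against 92.9 to 95.8 in C57BL/6. Whether a further rise could show at that level was not tested. Of the 4 probe sets, 3 were called with LPS in each strain, and 1450703_at was not, with 0.79 in C57BL/6 (adjusted p = 0.106) and 0.35 in NOD (0.210). With replicates blocked by number that probe set passed in both strains, at adjusted p = 0.0739 in C57BL/6 and 0.0913 in NOD. The LPS call of the brightest probe set in NOD held without NOD PBS replicate 3 and ended without any other of the 8 arrays, with differences of 0.38 to 0.56. In C57BL/6 it held without PBS replicate 2 and ended without any other of the 7 arrays, with differences of 0.74 to 0.94.

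**Figure D2:**
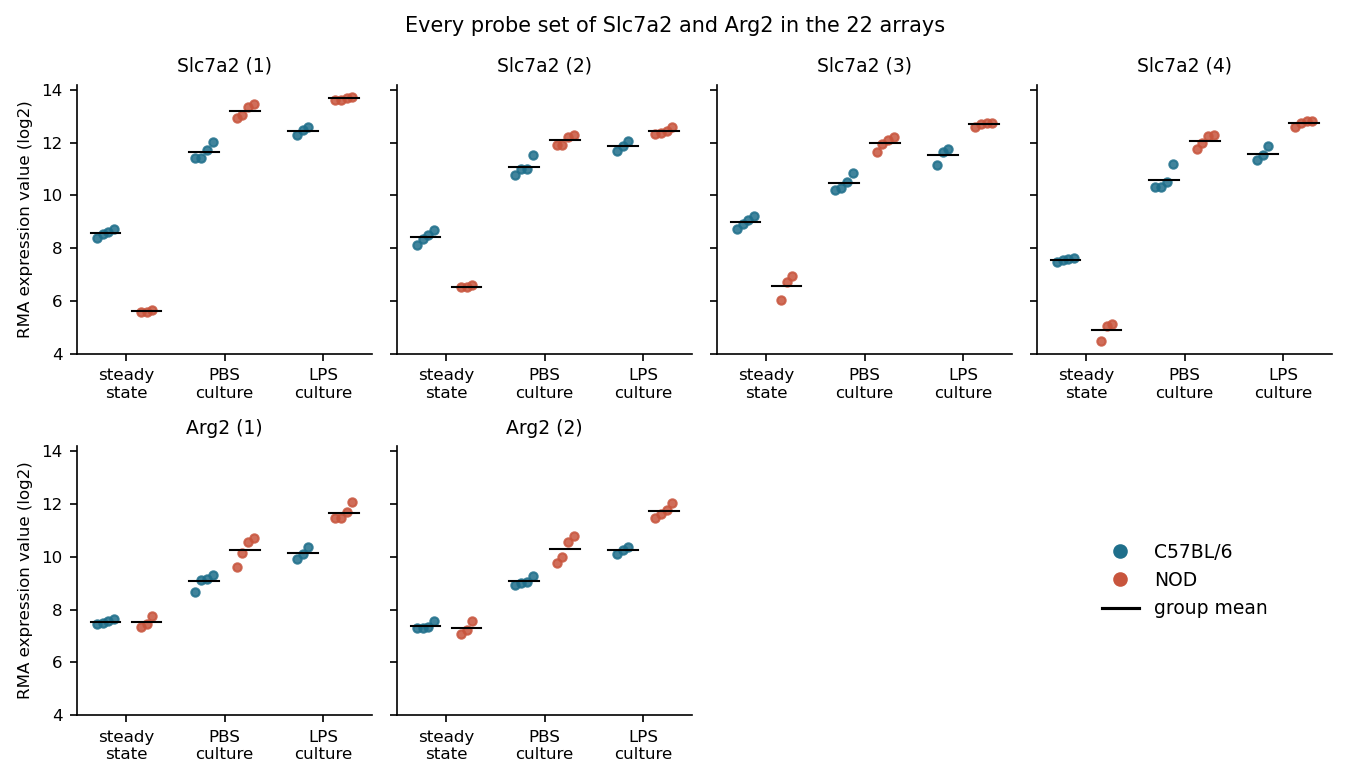
Log2 RMA expression value (y axis) of the 4 probe sets of Slc7a2 (1422648_at, 1450703_at, 1436555_at and 1426008_a_at, numbered in this order) and the 2 of Arg2 (1418847_at, 1438841_s_at), by condition (x axis) and strain (colour); points are arrays and lines are group means. All 4 Slc7a2 probe sets place NOD below C57BL/6 at steady state and above it in both cultures, and Arg2 parts by strain in culture.

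Ass1, argininosuccinate synthase, rose in culture and did not pass the strain tests. Its only member probe set, 1459937_at, read 6.15, 5.99, 5.79 and 6.19 in C57BL/6 and 6.37, 6.37 and 6.05 in NOD at steady state. With PBS it read 7.42, 7.51, 7.84 and 7.42 in C57BL/6 and 7.58, 8.43, 8.12 and 7.89 in NOD. The strains overlapped in both conditions. PBS culture raised it by 1.52 ± 0.13 (SE) in C57BL/6 and by 1.74 ± 0.19 in NOD. The strain difference after PBS was 0.46 (0.07 to 0.85), not called with adjusted p = 0.179, and called with replicates blocked by number (0.0793) and without NOD PBS replicate 1 (0.60, adjusted p = 0.0635). With LPS it read 7.34, 8.22 and 7.23 in C57BL/6 and 7.57, 7.47, 7.78 and 7.74 in NOD, and the strain difference was 0.05 (−0.44 to 0.53). LPS changed it by 0.05 (−0.47 to 0.57) in C57BL/6 and −0.36 (−0.73 to 0.00) in NOD, neither called.

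A further probe set, 1416239_at, is assigned to Ass1 and the pseudogene Gm5424 together and was no member. It rose more in culture, from means of 8.14 and 8.37 at steady state to 11.72 and 11.93 with PBS in C57BL/6 and NOD, by 3.58 and 3.56. Its strain differences of 0.23, 0.21 and 0.32 at steady state, with PBS and with LPS were not called. The interaction of strain and culture was −0.02 (−0.41 to 0.37).

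Arg1, the cytosolic arginase of alternatively activated myeloid cells, was lower in NOD at steady state and changed least in culture. Probe set 1419549_at read 7.63, 7.29, 7.73 and 7.61 in C57BL/6 and 6.75, 6.43 and 6.76 in NOD, without overlap, a difference of −0.92 (−1.21 to −0.63) that was called. After PBS culture it read 7.58, 7.61, 8.63 and 7.71 in C57BL/6 and 7.68, 7.31, 7.30 and 7.15 in NOD. C57BL/6 replicate 3 stood alone at 8.63, and the strains overlapped. The strain difference of −0.52 (−1.01 to −0.04) was not called, and it was −0.27 without that replicate. With LPS Arg1 read 7.71, 8.76 and 8.07 in C57BL/6 and 7.34, 7.27, 7.29 and 7.32 in NOD, where NOD was lower by −0.88 (−1.34 to −0.41), called, and by −0.58 without C57BL/6 replicate 3, still called. PBS culture raised Arg1 in NOD by 0.72 (0.39 to 1.04), while the difference in C57BL/6 was 0.32 (−0.14 to 0.78), not called. The interaction of 0.40 (−0.21 to 1.00) was not called, and it was 0.65 and called (adjusted p = 0.0817) without C57BL/6 PBS replicate 3. LPS changed Arg1 by 0.30 (−0.37 to 0.97) in C57BL/6 and −0.06 (−0.32 to 0.21) in NOD, neither called.

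The C57BL/6 arrays numbered 3 were high for Arg1 with PBS and with LPS alike, and the labels do not say whether arrays of equal number share a pool. Arg1 was higher there by 1.00 and 0.88 over the mean of the other C57BL/6 arrays of that condition. Chil3 (Ym1), another gene of alternative activation, was higher there by 1.37 and 1.15, whereas Retnla and Mrc1 of the same list were lower, by −0.07 and −0.17 and by −0.21 and −0.77. Of 10 neutrophil markers, 8 were higher in both of these arrays, of 9 NK and innate lymphoid markers 7 were lower in both, and of 7 acinar markers 6 were higher in both. Cd8a, the marker sorted against, was higher there by 1.46 with PBS and 0.42 with LPS. The LPS array numbered 3 was also higher for Ass1, by 0.94, and lower for Nos2 and Ido1, by −0.62 and −0.63. The part of other cells in these values was not tested.

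Arg2, the mitochondrial arginase, had no called strain difference at steady state and was higher in NOD in both cultures. Probe set 1418847_at read 7.66, 7.47, 7.58 and 7.45 in C57BL/6 and 7.76, 7.43 and 7.34 in NOD at steady state, with a difference of −0.03 (−0.29 to 0.23), which was −0.21 and called with array weights (adjusted p = 0.0524). With PBS it read 8.68, 9.17, 9.10 and 9.32 in C57BL/6 and 10.72, 9.61, 10.56 and 10.15 in NOD. All NOD values were above all C57BL/6 values, by 1.19 (0.69 to 1.69) in the mean, 2.28-fold. With LPS it read 9.91, 10.10 and 10.38 in C57BL/6 and 12.07, 11.46, 11.70 and 11.49 in NOD, a difference of 1.55 (1.16 to 1.93), 2.92-fold. PBS culture raised Arg2 by 1.53 ± 0.14 (SE) in C57BL/6 and by 2.75 ± 0.23 in NOD, and these rises differed by 1.22 (0.62 to 1.82). LPS raised it further in both strains, by 1.06 (0.67 to 1.46) in C57BL/6 and 1.42 (0.92 to 1.91) in NOD, and the difference between these responses, 0.36 (−0.31 to 1.03), was not called. The C57BL/6 LPS arrays lay inside the range of the NOD PBS arrays, and the other neighbouring cultured groups did not overlap.

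The second Arg2 probe set, 1438841_s_at, had the same calls, with strain differences of −0.10, 1.22 and 1.49 and an interaction of strain and culture of 1.32. Among the members, Arg2 was the gene whose every probe set was called higher with LPS in both strains. In C57BL/6 the LPS call of 1418847_at ended without PBS replicate 1, LPS replicate 3 or LPS replicate 4, with differences of 0.93 to 1.17 over the 7 arrays left out in turn.

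Ido1, which starts tryptophan breakdown to kynurenine, rose in culture in both strains and less in NOD. Probe set 1420437_at read 5.79, 5.92, 5.79 and 5.76 in C57BL/6 and 5.74, 5.50 and 5.82 in NOD at steady state, all at percentile 22.5 of their arrays or lower, with a difference of −0.13 (−0.36 to 0.10). With PBS it read 9.79, 10.12, 9.63 and 10.06 in C57BL/6 and 8.31, 8.91, 8.62 and 8.53 in NOD. The strains did not overlap, and NOD was lower by −1.31 (−1.65 to −0.97), 2.48-fold. With LPS it read 10.38, 9.96 and 10.80 in C57BL/6 and 9.45, 9.45, 9.76 and 9.59 in NOD, again without overlap, and NOD was lower by −0.82 (−1.23 to −0.41). PBS culture raised Ido1 by 4.09 ± 0.12 (SE) in C57BL/6 and by 2.91 ± 0.15 in NOD. The difference between these rises was −1.18 (−1.60 to −0.76), the only negative one that was called among the members. LPS raised Ido1 by 0.97 (0.67 to 1.27) in NOD without overlap. In C57BL/6 the difference was 0.48 (0.03 to 0.93), with overlap and not called, and the 2 responses differed by 0.49 (−0.05 to 1.02), not called.

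Between the strains at steady state, 1 member probe set was called higher in NOD (Nos2) and 6 lower (Acod1, Arg1 and all 4 of Slc7a2), where 7.09% of all probe sets were higher and 7.94% lower. After PBS culture 6 were higher (Slc7a2 and Arg2) and 1 lower (Ido1), against 4.78% and 5.09% of all probe sets. After LPS culture the same 6 were higher and 2 were lower (Arg1 and Ido1), against 5.03% and 4.88%. For LPS against PBS, 7 were higher and 0 lower in NOD, where 1.68% and 2.08% of all probe sets were called, and 5 were higher and 0 lower in C57BL/6, where 0.715% and 0.762% were. The 5 in C57BL/6 were 3 of Slc7a2 and 2 of Arg2. This count was 1 without PBS replicate 1 or LPS replicate 4, 2 without PBS replicate 4, LPS replicate 2 or LPS replicate 3, and 3 without PBS replicate 3. It was 1 without both cultured C57BL/6 arrays of replicate 3. In the unpaired limma fit 0 of 11 member probe sets were called for a strain difference in the LPS response, against 0.0244% of all probe sets. At an unadjusted p under 0.05 in that fit the count was also 0. With replicates blocked by number 0 of 11 were called as well. There the difference was 0.52 ± 0.19 (SE) for Ido1, 0.49 ± 0.18 for Arg2 (1418847_at) and −0.42 ± 0.16 for Slc7a2 (1450703_at). Unadjusted p values of the blocked fit were not counted.

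**Figure D3:**
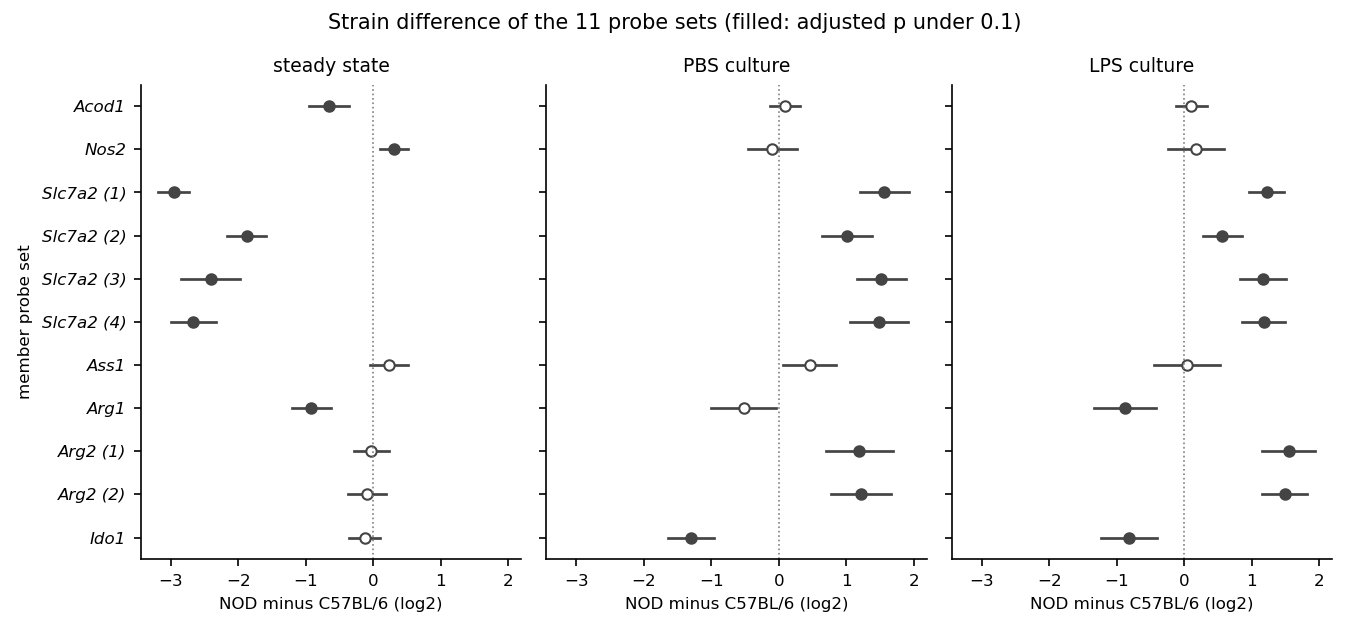
Log2 difference NOD minus C57BL/6 (x axis) of the 11 member probe sets (y axis) in each condition; points are fitted differences, bars are 95% confidence intervals and filled points are calls at adjusted p under 0.1. The 4 Slc7a2 probe sets lie below 0 at steady state and above 0 in both cultures.

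**Figure D4:**
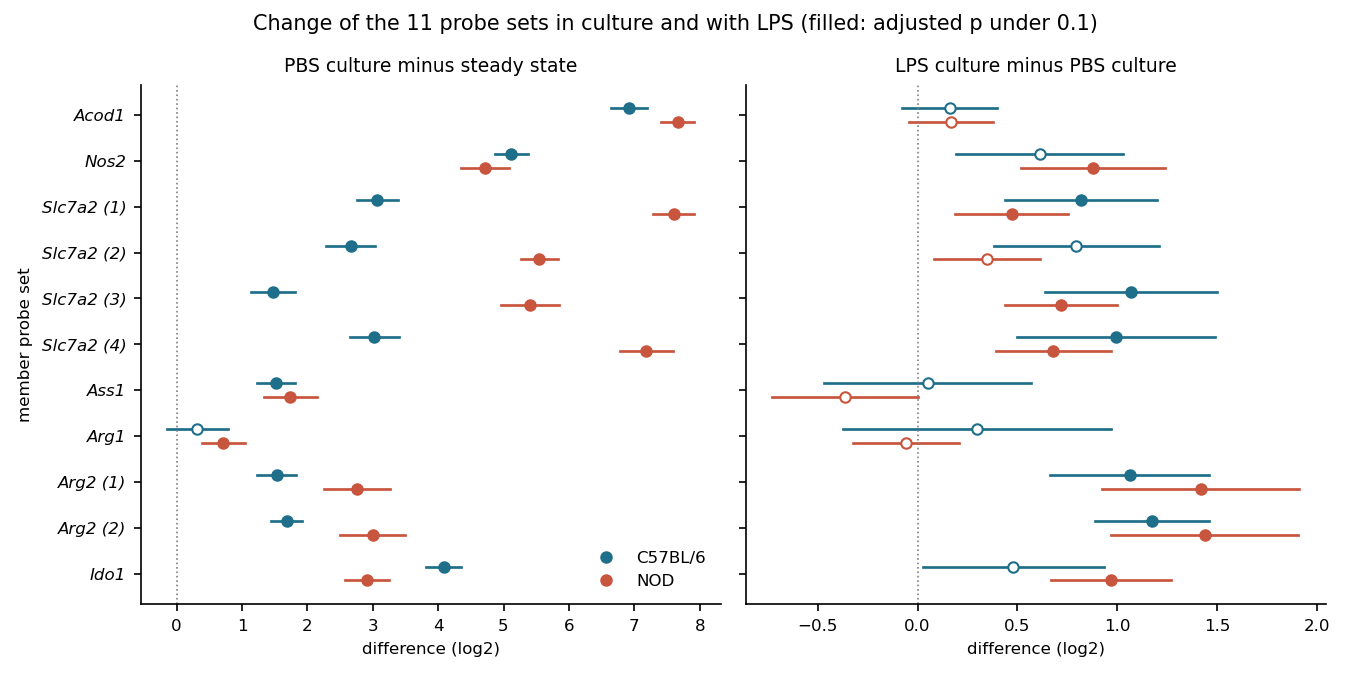
Log2 difference (x axis) of the 11 member probe sets (y axis) for PBS culture against steady state (left) and LPS against PBS (right) in each strain (colour); points, bars and filling are as in the strain plot, and the 2 panels have different x axes. The culture changes reach 7.66, while the largest LPS change is 1.44.

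The genes around the members in these pathways were read from lists that leave the 7 members out. In the list of TCA cycle and itaconate handling, 21 of 24 measured genes fell in PBS culture in NOD and 0 rose. In C57BL/6 20 fell and 2 rose, while over all 18193 genes 30.0% and 32.3% fell. Fh1, fumarate hydratase, changed by −2.94 in NOD and −3.35 in C57BL/6. Idh1, the cytosolic isocitrate dehydrogenase, changed by −2.73 and −2.21, and Idh3a, a subunit of the mitochondrial one, by −1.84 and −2.25. The median difference of the list was −0.92 in both strains. Suclg2, a succinyl-CoA ligase subunit, was lower in NOD in every condition, by −1.34 at steady state, −1.71 with PBS and −1.16 with LPS. Its NOD means of 6.00 with PBS and 6.24 with LPS lay under the lower quartile of those arrays and are not shown to be above background. With LPS against PBS, 1 gene of this list fell in NOD (Idh2, −0.47) and none was called in C57BL/6.

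NRF2 targets rose in culture for 8 of 9 measured genes in each strain, beside 41.6% of all genes in NOD and 44.6% in C57BL/6. Slc7a11, the cystine transporter, rose by 5.37 in NOD and 4.77 in C57BL/6, the sulfiredoxin gene Srxn1 by 3.72 and 3.14, and Nqo1, a quinone reductase, by 2.87 and 3.58. With LPS 1 of 9 rose in NOD (Slc7a11, 0.55) and none was called in C57BL/6. The list of classical activation genes rose for 15 of 16 in each strain, with Ptges, a prostaglandin E synthase, at 6.79 in NOD and 6.05 in C57BL/6 and Ptgs2, the inducible cyclooxygenase, at 6.91 and 5.43. Of 12 alternative activation genes, 9 fell in NOD and 8 in C57BL/6 and 3 rose in each, where 30.0% and 32.3% of all genes fell. In NOD and C57BL/6 the scavenger receptor Cd163 changed by −4.72 and −5.42, the lectin Clec10a by −4.60 and −4.98, and the mannose receptor Mrc1 by −3.62 and −4.47. Mrc1 is also on the macrophage list and Clec10a on the DC list, so these counts are not separate from the markers above.

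**Figure D5:**
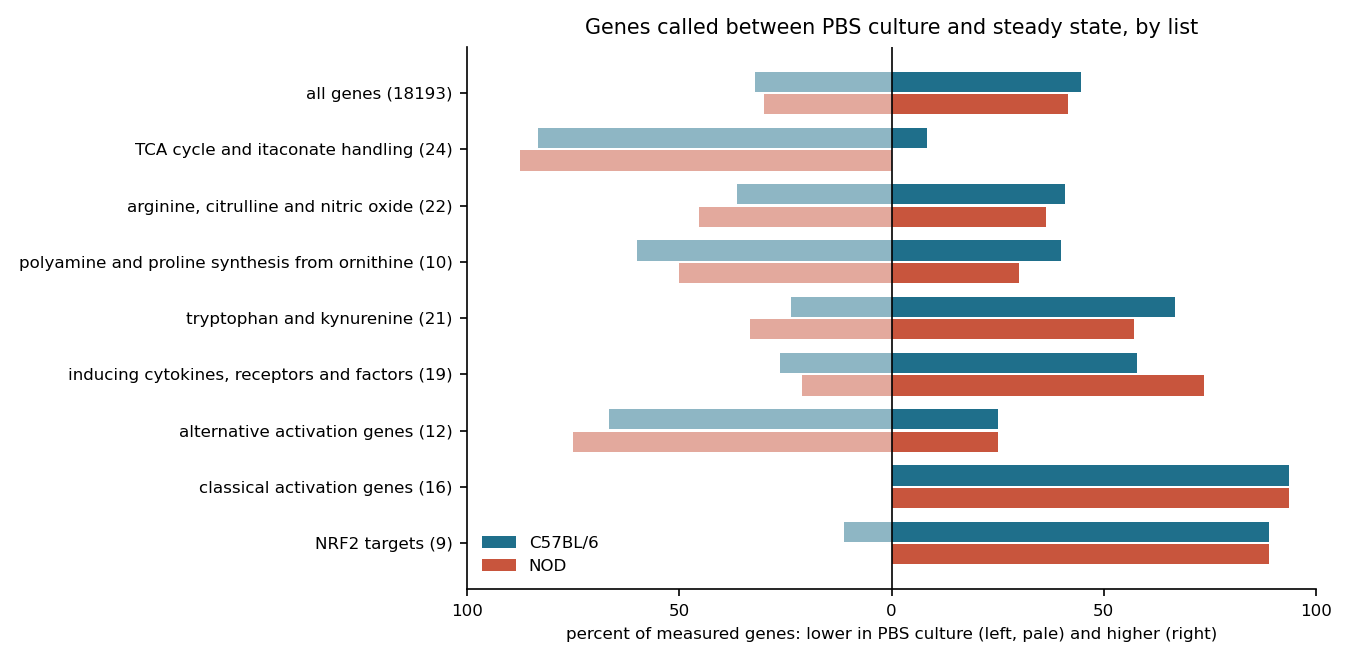
Percent of the measured genes of each list (number in brackets) called lower (left, pale) or higher (right) in PBS culture than at steady state, for each strain (colour), with all 18193 genes at the top. The TCA list falls and the classical activation and NRF2 lists rise in both strains.

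The other arginine genes showed no single direction in culture. Of 22 measured genes of arginine, citrulline and nitric oxide, 8 rose and 10 fell in NOD, and 9 rose and 8 fell in C57BL/6, where 41.6% and 30.0% (NOD) and 44.6% and 32.3% (C57BL/6) of all genes did. Gatm, which uses arginine to make creatine, changed by −3.09 in NOD and −3.07 in C57BL/6, and the mitochondrial ornithine carrier Slc25a15 by −2.34 and −2.89. Gch1, which starts the synthesis of the Nos2 cofactor tetrahydrobiopterin, rose by 2.19 in C57BL/6, and its culture change in NOD is not reported here. Gch1 was higher in NOD by 0.46 after LPS. At steady state 6 of the 22 were higher and 1 lower in NOD, beside 6.87% and 8.35% of all genes. Gchfr, a regulator of Gch1, was higher by 1.44 and the transporter Slc7a7, which exports arginine, by 1.11, while the housekeeping arginine transporter Slc7a1 was lower by −0.54. For Slc7a7 the interaction of strain and culture was −1.61, and it was lower in NOD with PBS by −0.50 and with LPS by −0.46. LPS raised Slc7a1 in NOD by 0.51 and no gene of this list in C57BL/6.

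Downstream of the arginases, 3 of 10 measured genes of polyamine and proline synthesis rose and 5 fell in culture in NOD, and 4 rose and 6 fell in C57BL/6. Of all genes 41.6% rose and 30.0% fell in NOD, and 44.6% and 32.3% in C57BL/6. Smox, spermine oxidase, rose by 3.81 in NOD and 2.94 in C57BL/6, and Odc1, which makes putrescine from ornithine, rose by 1.58 in NOD. The culture change of Odc1 in C57BL/6 is not reported here. The culture difference was larger in NOD by 0.87 for Smox and by 0.88 for Odc1. Odc1 was lower in NOD at steady state by −0.38 and higher with PBS by 0.50 and with LPS by 0.47. Aldh18a1, of proline synthesis, was lower in NOD in all 3 conditions, by −0.75, −0.94 and −0.72.

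Among the other tryptophan genes 12 of 21 (57.1%) rose and 7 fell in culture in NOD, and 14 (66.7%) rose and 5 fell in C57BL/6, beside the same shares of all genes, 41.6% and 44.6% higher and 30.0% and 32.3% lower. At steady state 5 were higher in NOD and 2 lower, beside 6.87% and 8.35% of all genes. The largest of these were Cyp1b1 (−1.48) and Ahr (0.86). After PBS culture 7 were lower in NOD and 1 higher, beside 5.28% and 5.43% of all genes. After LPS 5 were lower and 1 higher, beside 5.43% and 5.21%. Those lower with PBS included Kynu, kynureninase (−1.05), Wars, the tryptophanyl-tRNA synthetase (−0.85), and Ahrr, a repressor of the kynurenine-sensing receptor Ahr (−1.18). Kmo, which hydroxylates kynurenine, was the one higher in NOD in culture, by 1.33 with PBS and 0.83 with LPS. Ido2, the paralogue of Ido1, rose in culture by 2.25 in C57BL/6, had an interaction of −1.20, and was lower in NOD with LPS by −0.95. Its culture change in NOD is not reported here. Ido2 rose with LPS in C57BL/6 by 0.70. Cyp1b1, an Ahr target, rose with LPS in both strains, by 1.28 in NOD and 0.95 in C57BL/6.

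Of the cytokines, receptors and factors that induce the members, 14 of 19 rose and 4 fell in culture in NOD. In C57BL/6 11 rose and 5 fell. Over all genes 41.6% rose and 30.0% fell in NOD, and 44.6% and 32.3% in C57BL/6. Ifng, the interferon that induces Ido1 and Nos2, was lower in NOD by −1.31 at steady state, −1.79 with PBS and −1.78 with LPS, as were the NK and innate lymphoid markers above. The part of those cells in the Ido1 difference was not tested. Among classical activation genes Cxcl9, also interferon-induced, was higher in NOD by 0.69 at steady state and lower by −1.72 with PBS and −1.62 with LPS. Tnf was higher in NOD by 0.81 with PBS and 0.88 with LPS, and Il6 by 0.83 and 1.17. Cd14, the LPS co-receptor, was higher in NOD by 1.66 with PBS and 1.03 with LPS. With LPS, Il10 rose by 2.06 in NOD and 1.59 in C57BL/6, Il1b by 1.70 and 1.90, and Il12a by 1.55 and 1.90.

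Genes with the most similar pattern were found by Pearson's r over the 22 arrays, as a description. For Acod1 they were the chemokine gene Cxcl10 (r = 0.999), Cd274 (PD-L1, 0.999) and Isg20 (0.998). For Nos2 they were Nfkbib (0.998), Flrt3 (0.996) and Chd7 (0.993), and for Slc7a2 Srgn (0.978), Maff (0.975) and Ifih1 (0.974). Arg2 was followed most closely by P2ry2 (0.979), Lrrc8d (0.972) and Csf3 (0.966), and Ido1 by Tnfrsf9 (0.986), Csf3r (0.983) and Eif6 (0.981). Ass1 had Slc7a8 (0.956), Zfp513 (0.950) and Tnfsf4 (0.950). Arg1 had the lowest values, with Gata3 (0.885), Slc25a47 (0.871) and Camp (0.866), of which Gata3 is on the innate lymphoid list and Camp on the neutrophil list. The arrays fall into 7 at steady state and 15 in culture, and any gene that parts these has a high r with most members.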

How the data were processed

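RNA of sorted pancreatic CD11c+CD8α- DCs was amplified and hybridized to Affymetrix mouse arrays, 1 array per sample. For the deposited table the authors ran RMA in BRB-ArrayTools (version not given in the sources used here), so each value is on the log2 scale for 1 probe set. RMA brings the arrays to similar distributions and compresses differences at low intensity. Over the probe sets the lower quartile still lay between 6.03 and 6.19 at steady state and between 6.19 and 6.36 in culture. The upper quartile lay between 9.46 and 9.61 at steady state and between 9.24 and 9.41 in culture. No raw intensities and no detection calls were used here. The 64 array controls among 45101 probe sets were left out. The annotation names 1 gene for 34945 probe sets, several for 932 and none for 9160, and 99.4% of the former were matched by gene number. Each gene was read from its brightest probe set (mean over the 22 arrays). The members, lists and markers were chosen with earlier results of these data known.

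Groups were compared with limma 3.58.1 in R 4.3.3 (lmFit and eBayes, unpaired), on the arrays of the groups compared, with Benjamini-Hochberg adjustment over 45037 probe sets and calls at adjusted p under 0.1, the false discovery level of the methods. Each interaction used the 15 arrays of its 4 groups. The multivariate permutation test named in the methods was not run. The code was tested on simulated data. Nothing but the labels says that samples are separate pools, and the number of arrays limits the precision.

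Named genes are the 7 members with their other probe sets where these differ, up to 4 genes of each other list with the largest difference among those called, and the 3 genes most alike to each member. The markers named in the check of the cells, and the genes named for C57BL/6 replicate 3, were chosen after their values were seen. Some genes of the lists are not reported here, and each list's count of measured genes is given beside its result.

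Alternatives were a threshold of 0.05, only the brighter 50% of probe sets, a joint model of all 22 arrays, centring each array on its median, a trended and robust prior, weights for arrays, replicates blocked by number, averaging the probe sets of a gene, and each array left out in turn. Leaving out both cultured C57BL/6 arrays of replicate 3 was chosen after seeing the data. Pairing by equal replicate numbers was examined by correlating deviations from the group means. The correlation was 0.109 to 0.433 between the strains at steady state, 0.137 to 0.320 with PBS, 0.114 to 0.345 with LPS, and 0.241 to 0.487 (NOD) and 0.259 to 0.423 (C57BL/6) between LPS and PBS. Equal numbers were judged to be paired there, but the main differences, intervals, calls and shares stayed unpaired. Blocking changed the calls over all probe sets from 6769 to 9470 between the strains at steady state, 4447 to 6826 with PBS and 4463 to 5285 with LPS. For LPS against PBS they went from 1693 to 4282 in NOD and from 665 to 953 in C57BL/6. Between PBS culture and steady state, with 2 shared numbers per strain, it was 0.0996 to 0.277 in NOD and −0.0328 to 0.177 in C57BL/6, and these were not.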

Additional observations from a re-analysis of the deposited data

Results flagged for a closer look

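In 4 of 44 groups of 4 arrays tested, 1 array lay far from the others by Dixon's criterion, which chance alone gives in about 1 of 20 groups. These were Acod1 in NOD PBS replicate 3 at 13.94 (others 13.75 to 13.77), Arg1 in C57BL/6 PBS replicate 3 at 8.63 (others 7.58 to 7.71), Arg2 (1438841_s_at) in C57BL/6 steady state replicate 6 at 7.58 (others 7.31 to 7.34) and Slc7a2 (1436555_at) in NOD LPS replicate 3 at 12.60 (others 12.72). The effect of PBS culture differed between the strains, by the interaction test, for Acod1 (0.75 larger in NOD), Arg2 (1.22 and 1.32 for its 2 probe sets), Slc7a2 (4.53, 2.88, 3.93 and 4.16 for its 4 probe sets) and Ido1 (−1.18). For Acod1 the strains differed at steady state and for Arg2 and Ido1 in culture, while Slc7a2 was called in both with opposite sign.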

How the results depend on the processing

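With replicates blocked by number (the pairing), 8 member probe sets in place of 7 were called between the strains after PBS (Ass1 added, 0.46), 8 in place of 7 with LPS in NOD and 6 in place of 5 in C57BL/6 (Slc7a2, 1450703_at, added in both). For the interaction of strain and culture, where the replicates are not paired and 8 arrays remain, it was 6 in place of 8, without Acod1 (0.63, adjusted p = 0.386) and Arg2 (1.40, 0.102). It changed no other call of a member.

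Counting genes by the mean over their probe sets gave 4, 3 and 4 of 7 genes between the strains at steady state, with PBS and with LPS, 4 and 2 for LPS in NOD and C57BL/6, 7 and 6 for culture, and 4 for the interaction of strain and culture, fewer because genes and not probe sets were counted. Among the brighter 50% of probe sets 1 member was called at steady state, where the dimmer members were not tested. For LPS in C57BL/6 the count was 3 at adjusted p under 0.05, 1 without both cultured arrays of C57BL/6 replicate 3, and 1 to 6 with each array left out in turn.

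Differences near 0 changed sign with arrays left out in turn, and none of them was called. Their ranges were −0.15 to 0.055 for Arg2 at steady state, −0.23 to 0.032 and −0.035 to 0.33 for the strain difference of Nos2 with PBS and LPS, −0.14 to 0.36 for that of Ass1 with LPS, −0.13 to 0.048 for Arg1 with LPS in NOD, −0.26 to 0.23 for Ass1 with LPS in C57BL/6 and −0.0092 to 0.054 for the strain difference in the LPS response of Acod1. Without both arrays of replicate 3 the strain difference of Nos2 with LPS was −0.035 and the LPS change of Ass1 in C57BL/6 was −0.16. Over all alternatives, 1046 values of the brightest probe sets kept direction and call, 7 became called (Arg2 at steady state and Ass1 with PBS under array weights, Nos2 with LPS in C57BL/6 in the joint model, and others named in the results), 31 lost their call and 17 changed sign. The losses concern Nos2 at steady state and, with LPS, Slc7a2 in both strains and Arg2 in C57BL/6, beside Acod1 and Arg2 above. Their cause was not tested.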
